A study of Bos taurus with 15 samples.

Results

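Bovine embryos cultured with frozen-thawed oviductal extracellular vesicles (FoEV treatment) were compared with embryos cultured without vesicles (Co). The libraries were chosen by treatment alone and comprised 5 FoEV and 5 Co libraries of the 15 libraries of the series, whose other 5 came from embryos given fresh vesicles (FeEV treatment). All embryos were produced in vitro, and each library held total RNA of a pool of 8 to 14 embryos, prepared from 1 ng of RNA. FoEV embryos received vesicles from oviducts of cows in the postovulatory stage that had been stored frozen, whereas Co embryos received no supplement, so the comparison holds the vesicles together with their freezing and thawing. The sample labels gave day 7 of development and the methods of the study a culture of 1 day more. For FoEV, 8 pools with 81 embryos were isolated and for Co 6 pools with 68 embryos, and the pools with the best RNA were sequenced. A p-value in this comparison measures the spread between pools of embryos, and the sources do not say whether the pools came from separate fertilization runs.

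Oviductal extracellular vesicles are membrane-bound particles released by the lining of the oviduct, which carry proteins, lipids and RNA and can be taken up by the embryo. At the blastocyst stage the embryo consists of an outer epithelium, the trophectoderm, which pumps fluid into a cavity and later forms the placenta, and an inner cell mass, from which the epiblast and the hypoblast arise. The embryo by then runs on its own transcripts, and it raises respiration in its mitochondria, ribosome production and protein synthesis as it grows. Proteins for the cell surface and for secretion are made at the endoplasmic reticulum (ER), which answers an excess of unfolded protein with a set of stress response genes. Small nucleolar RNAs (snoRNAs) guide the chemical modification of ribosomal RNA in the nucleolus, and small nuclear RNAs (snRNAs) are the RNA parts of the spliceosome.

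Counts summed over genes ran from 2571558 to 2977004 in the Co libraries and from 3392613 to 4058887 in the FoEV libraries, so that each FoEV library was deeper than each Co library (difference in means 957432; exact permutation p, two-sided, 0.00794, which is the minimum for groups of this size). Counts on ribosomal RNA genes took between 15.5% and 28% in Co and between 15.9% and 28.2% in FoEV. These shares are those left after a step of the library preparation meant to take out ribosomal RNA fragments. Depth and treatment cannot be told apart in this design, and results with counts thinned to equal depth are given where they differed. Levels below are CPM values (counts scaled to a common library size) adjusted by the TMM method, which corrects for differences in library composition, and the 5 values of a group are given in the order of replicates 1 to 5. Fold changes are log2 values of FoEV over Co from the fit across all genes. In pools of whole embryos, fewer cells of a type and less RNA per cell cannot be told apart.

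Lineage markers of the labelled stage were present in all libraries. All 10 trophectoderm markers were found, with a summed level between 7277 and 9565 CPM in Co and between 9097 and 11957 CPM in FoEV, and 7 of 8 inner cell mass markers summed to between 476 and 587 CPM and to between 451 and 711 CPM. Markers of cells that could cling to embryos summed to lower levels than either of these lists. The 6 oviduct epithelium markers summed to between 17.5 and 36.1 CPM in Co and between 15.4 and 36.6 CPM in FoEV. The 8 cumulus and granulosa cell markers summed to between 53.6 and 128 CPM in Co and between 64.2 and 153 CPM in FoEV. Of these, PTX3 was at 0 in all 10 libraries. CYP11A1 averaged 62.5 CPM in Co and 63.5 CPM in FoEV, and CYP19A1 17.9 and 25.1 CPM. The 6 sperm markers summed to between 3.28 and 14.2 CPM in Co and between 3.54 and 13 CPM in FoEV. The ranges of these sums overlapped between the treatments.

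Of 10832 genes tested, 1 gene (0.00923%) had an adjusted p under 0.05 by the quasi-likelihood F test of edgeR. At an unadjusted p under 0.001, 90 genes passed (0.831%), of which 49 were higher (0.452%) and 41 lower (0.379%) in FoEV embryos. At an unadjusted p under 0.05, 1631 genes passed (15.1%), 886 of them higher (8.18%) and 745 lower (6.88%). For 282 genes (2.6%) the groups did not overlap, with each of the 5 FoEV libraries above each Co library for 136 genes (1.26%) and below for 146 (1.35%). The median log2 fold change of all genes was 0.01, and 5665 genes (52.3%) had a value above 0. These shares are the background for the counts of gene lists that follow. The count at an unadjusted p under 0.001 depended on single libraries, since it was 40 without Co replicate 4, 59 without FoEV replicate 4 and 153 without FoEV replicate 2. The count of genes whose groups did not overlap can only stay or rise when a library is left out. It was lowest at 343 without Co replicate 4, and 649 without FoEV replicate 2 and 596 without Co replicate 1.

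**Figure D1:**
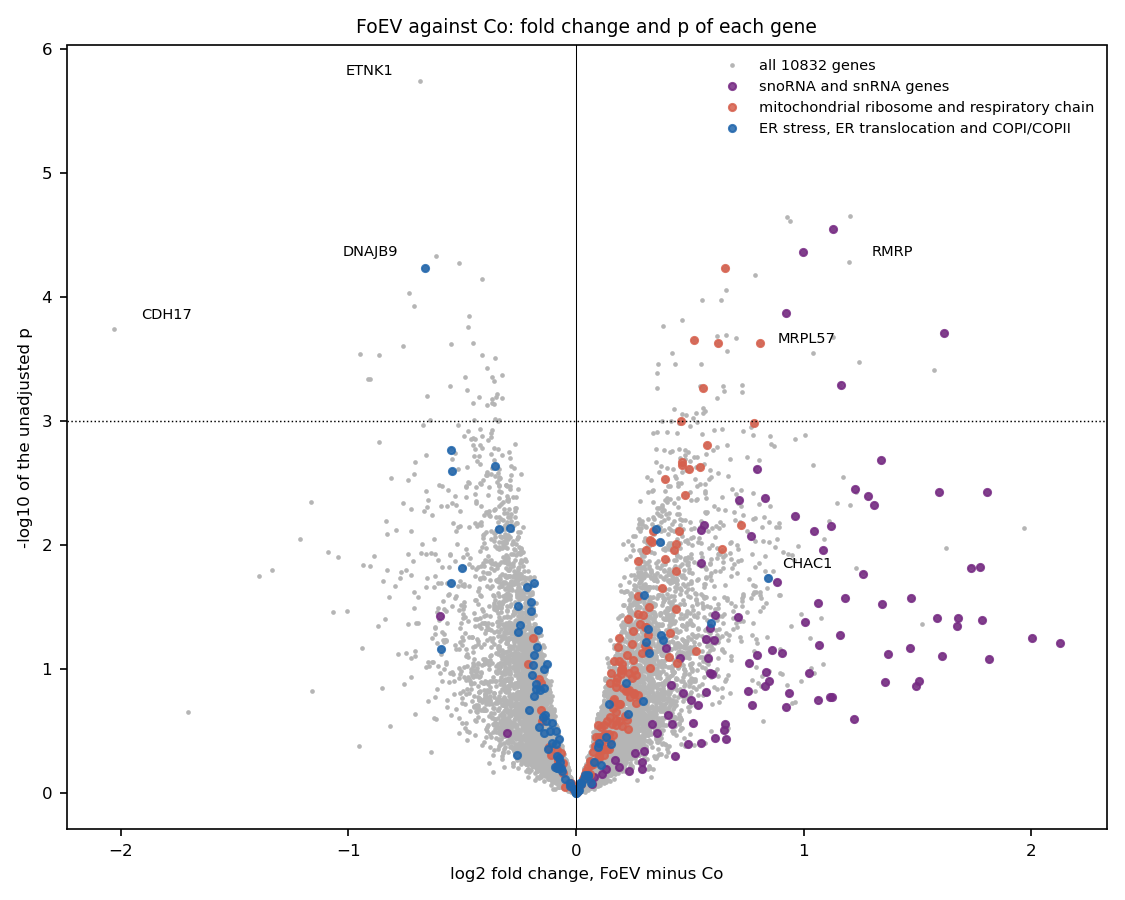
Log2 fold change of FoEV over Co on the x axis against the -log10 of the unadjusted p on the y axis for all 10832 genes (grey), with snoRNA and snRNA genes in purple, genes of the mitochondrial ribosome and respiratory chain in orange and genes of ER stress, ER translocation and vesicle coats in blue. The dotted line marks an unadjusted p of 0.001, and ETNK1 at a log2 fold change of -0.68 is the point with the smallest p.

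ETNK1, ethanolamine kinase 1, which phosphorylates ethanolamine in the first step of phosphatidylethanolamine synthesis, was the gene that passed. Its level was 166, 184, 174, 207 and 165 CPM in the Co libraries and 115, 129, 102, 97.5 and 114 CPM in the FoEV libraries, so that the groups lay apart. It fell by 0.68 on the log2 scale (standard error 0.11, edgeR adjusted p = 0.0196). The adjusted p ranged from 5.81e-07 to 0.0381 over 10 alternative settings, and it missed the threshold when Co replicate 3 (0.0595), Co replicate 4 (0.134), FoEV replicate 1 (0.0627), FoEV replicate 4 (0.0872) or FoEV replicate 5 (0.0514) was left out. No other gene passed, and the values of all genes named below are given as measured differences that missed the adjusted threshold.

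Beside ETNK1, 16 genes of phosphatidylethanolamine and phosphatidylcholine synthesis were measured, and the list of 17 had a median log2 fold change of 0.06, with 1 gene higher and 4 genes lower at an unadjusted p under 0.05. SELENOI, an ethanolamine phosphotransferase that completes the pathway ETNK1 opens, was at 200.2, 197, 239, 195 and 202 CPM in Co and 175, 143, 193, 141 and 189 CPM in FoEV. No FoEV library reached the lowest Co library (log2 fold change -0.30, standard error 0.11, adjusted p = 0.216). CHKB, a kinase that acts on choline as well as ethanolamine, lay on the other side, at 29.4 ± 1.7 CPM in Co and 39.6 ± 7.01 CPM in FoEV (SD, n = 5). The list median ran from -0.03 without FoEV replicate 5 to 0.09 without Co replicate 1.

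Toward lower levels, the 10 largest differences at an unadjusted p under 0.001 without overlap of the groups (symbols starting with LOC left out) belonged to surface, secreted and intracellular proteins. CDH17, a cadherin of epithelial cells, was at 12.8, 4.39, 5.48, 6.42 and 9.03 CPM in Co and at 0.463, 3.53, 2.2, 0.334 and 2.45 CPM in FoEV, with a log2 fold change of -2.03 (standard error 0.45, adjusted p = 0.0757). Its FoEV values were all below the lowest Co value, but FoEV replicates 1 and 4 held fewer than 3 counts. MME, a surface metallopeptidase, was at 21.5 ± 2.76 CPM in Co and 12.7 ± 3.11 CPM in FoEV, and ADAMTS1, a secreted protease that cuts extracellular matrix proteoglycans, at 15.9 ± 1.75 and 8.15 ± 1.99 CPM (SD, n = 5). SUSD1, a membrane protein with sushi domains, was at 19.5 ± 2.31 and 10.3 ± 3.82 CPM. The same 10 included DNAJB9, which is described with the ER genes, ETNK1, and RAB30 and STXBP4, which are described with membrane traffic.

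Transporters were among them. SLC39A8, which imports zinc and manganese, was at 33.9, 37.4, 34.5, 32.5 and 36.1 CPM in Co and 16.7, 19.2, 29.8, 18 and 22.9 CPM in FoEV (log2 fold change -0.71, standard error 0.15, adjusted p = 0.0703). SLC30A1, which exports zinc from the cell, was likewise lower in each FoEV library, at 127 ± 8.47 CPM in Co and 93.4 ± 18.4 CPM in FoEV (SD, n = 5, log2 fold change -0.44). SLC5A11, a cotransporter of sodium and myo-inositol, was at 16.6 ± 3.82 and 8.88 ± 2.33 CPM. Among 27 amino acid transporters, 2 were higher and 2 lower at an unadjusted p under 0.05. SLC38A2, the inducible carrier of small neutral amino acids, was at 314, 307, 266, 346 and 294 CPM in Co and 158, 197, 275, 198 and 214 CPM in FoEV. Only FoEV replicate 3 reached into the Co range (log2 fold change -0.55, standard error 0.13, adjusted p = 0.0757). SLC6A20, a proline transporter, was at 160 ± 25.5 and 111 ± 26.2 CPM.

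Toward higher levels, the 10 largest differences under the same limits, with snoRNA and snRNA genes also left out, included RMRP, TERC and MIR2332, which are described with the RNA genes, and 3 genes of the mitochondria, MRPL57, SPG7 and MRPL58. APLP1, a relative of the amyloid precursor protein, was at 1.46, 1.69, 0.967, 2.41 and 1.23 CPM in Co and 4.86, 5.3, 3.31, 6.01 and 3.82 CPM in FoEV, with a log2 fold change of 1.57 (standard error 0.38, adjusted p = 0.0867). CLMP, an adhesion molecule found at tight junctions, was at 18 ± 4.07 CPM in Co and 29.9 ± 6.9 CPM in FoEV (SD, n = 5). VAMP8, which drives the fusion of endosomes and autophagosomes with their targets, was at 11.1 ± 2.65 and 18.4 ± 3.35 CPM, and NSMF at 16.4 ± 2.61 and 26 ± 2.61 CPM. For each of these genes the 5 FoEV libraries lay above the 5 Co libraries.

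**Figure D2:**
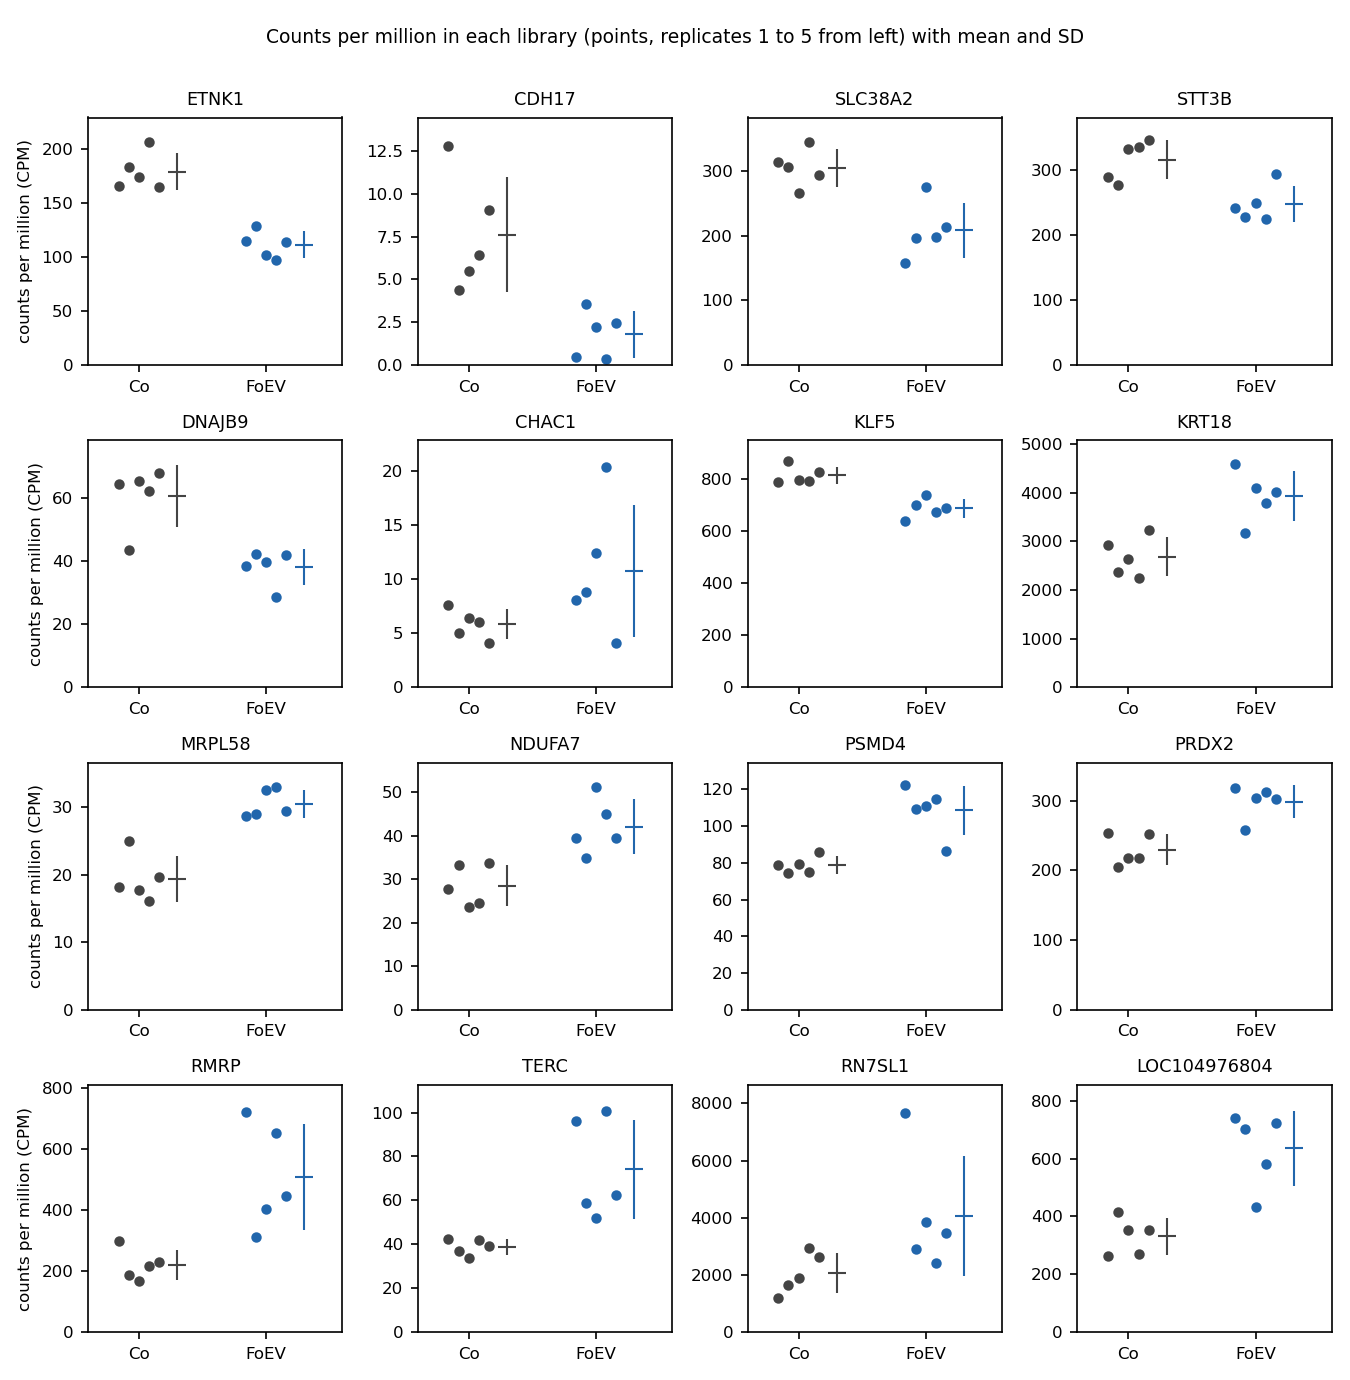
CPM of 16 genes in each Co and FoEV library (points, replicates 1 to 5 from left to right) with the mean and SD of each group as a bar, on axes that start at 0. The FoEV values of ETNK1, CDH17, DNAJB9 and KLF5 all lie below the Co values, those of MRPL58, NDUFA7, PSMD4, PRDX2, RMRP, TERC and LOC104976804 all lie above them, and RN7SL1 reaches 7677 CPM in FoEV replicate 1.

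Genes of the mitochondrial ribosome, which translates the few proteins encoded in mitochondrial DNA, were mostly higher in FoEV embryos. Of 78 members, 62 had a log2 fold change above 0, the median was 0.21, and 19 were higher and 0 lower at an unadjusted p under 0.05, against 8.18% and 6.88% of all genes. For 7 members each FoEV library was above each Co library, and for 1 it was below. MRPL58, a release factor built into the large subunit, was at 18.2, 25, 17.7, 16.1 and 19.7 CPM in Co and 28.7, 29, 32.5, 33.1 and 29.4 CPM in FoEV (log2 fold change 0.65, standard error 0.13, adjusted p = 0.0578). MRPL57 was at 12.6 ± 3.11 and 22.1 ± 4.29 CPM, MRPL52 at 31.6 ± 4.02 and 45.2 ± 4.87 CPM, and MRPS26 of the small subunit at 19 ± 1.33 and 29.3 ± 5.83 CPM (SD, n = 5). MRPL28, which the study did not list for this comparison, was at 12.2 ± 0.912 CPM in Co and 17.9 ± 3.63 CPM in FoEV without overlap.

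The nuclear-encoded subunits of the respiratory chain lay on the same side. Of 37 subunits of complex I, which passes electrons from NADH to ubiquinone, 35 had a log2 fold change above 0, with a median of 0.18, and 9 were higher and 0 lower at an unadjusted p under 0.05. NDUFA7 was at 27.7, 33.4, 23.5, 24.5 and 33.7 CPM in Co and 39.6, 34.8, 51.2, 45.1 and 39.5 CPM in FoEV (log2 fold change 0.56, standard error 0.14, adjusted p = 0.0948). NDUFB11 was at 35.3 ± 3.28 and 48.6 ± 7.13 CPM without overlap, whereas NDUFB7, at 28.7 ± 2.94 and 39.6 ± 6.92 CPM, overlapped in 1 FoEV library (SD, n = 5). Complexes II and III had 11 of 13 members above 0 with a median of 0.15, complex IV 10 of 11 with a median of 0.18, and ATP synthase 16 of 17 with a median of 0.10. CYC1, cytochrome c1 of complex III, was at 98.3 ± 13.6 and 124 ± 19.3 CPM, COX6B1 of complex IV at 49.7 ± 7.05 and 61.6 ± 6.05 CPM, and ATP5MC1, which encodes the c subunit of the ATP synthase rotor, at 41.2 ± 6.57 and 57 ± 7.2 CPM. The median of ATP synthase was 0.02 without FoEV replicate 3 and 0.16 without Co replicate 5, and that of complexes II and III was 0.09 without FoEV replicate 3 or Co replicate 3 and 0.23 without FoEV replicate 2.

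Other mitochondrial functions were uneven. The import translocases, which carry proteins made in the cytosol across the mitochondrial membranes, had 20 of 23 members above 0 with a median of 0.21, and 5 were higher and 0 lower at an unadjusted p under 0.05. TIMM10, a chaperone of the space between the membranes, was at 11.6 ± 2.94 CPM in Co and 17.3 ± 2.88 CPM in FoEV (SD, n = 5). SPG7, part of a protease of the inner membrane, was at 12.8, 13.5, 17.7, 12.8 and 17.2 CPM in Co and 29.6, 24.5, 21.8, 20.4 and 21 CPM in FoEV, with a log2 fold change of 0.66 (standard error 0.15, adjusted p = 0.0774). By contrast, 7 of 18 genes of pyruvate dehydrogenase and the citric acid cycle had a log2 fold change above 0, with a median of -0.03, 1 higher and 2 lower at an unadjusted p under 0.05. The 21 glycolytic enzymes and glucose transporters had a median of 0.04. No mitochondrially encoded gene was found by symbol, so these transcripts were not analysed here.

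Cytosolic ribosomal proteins were also mostly on the higher side. Of 49 proteins of the large subunit, 42 had a log2 fold change above 0, the median was 0.17, and 17 were higher and 0 lower at an unadjusted p under 0.05, yet only RPL39 lay apart between the groups. RPL39 was at 518, 379.5, 485, 365 and 496 CPM in Co and 674, 567, 551, 551 and 569 CPM in FoEV (log2 fold change 0.38, standard error 0.10, adjusted p = 0.118). The small subunit had 30 of 33 proteins above 0 with a median of 0.13, and 10 were higher and 1 lower at an unadjusted p under 0.05. RPS2 was at 916 ± 85.2 CPM in Co and 1168 ± 162 CPM in FoEV (SD, n = 5). Without FoEV replicate 3 the medians were 0.09 and 0.07, and without Co replicate 4 the median of the large subunit was 0.11. Ribosomal protein genes have many near-identical pseudogene copies. Of all 92 pseudogenes in the table, whatever their parent gene, 63 had a log2 fold change above 0, with a median of 0.13 (0.20 without Co replicate 2). At an unadjusted p under 0.05, 12 of the 92 were higher and 1 was lower. How many of the 92 are ribosomal copies was not examined.

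The enzymes and factors that work with the ribosome had medians near 0. Of 22 cytosolic aminoacyl-tRNA synthetases, which load amino acids onto tRNAs, 0 had an unadjusted p under 0.05 in either direction. Their median was 0.05, and it ran from -0.0019 without FoEV replicate 4 to 0.14 without FoEV replicate 1. The 41 initiation factors had a median of 0.03, with 8 higher and 6 lower at an unadjusted p under 0.05. EIF4E, the protein that binds the mRNA cap, was on the lower side, at 124, 160.3, 162, 138 and 138 CPM in Co and 121, 123, 128, 111 and 116 CPM in FoEV, so that 4 of 5 FoEV libraries lay below the lowest Co library. The 8 subunits of the cytosolic chaperonin, which folds actin and tubulin, had a median of -0.03 with 0 at an unadjusted p under 0.05.

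The snoRNA and snRNA genes were mostly on the higher side. Of 85 snoRNA genes that passed the filter of the authors on low counts, 83 had a log2 fold change above 0, the median was 0.85, and 33 were higher and 1 lower at an unadjusted p under 0.05. Of 17 snRNA genes, 17 were above 0, with a median of 0.60 and 5 higher, but 0 lay apart between the groups. The filtered genes are a small part of the 634 snoRNA and 971 snRNA genes in the unfiltered table, and a gene high only in FoEV libraries could pass the filter for that reason. snoRNA genes lie mostly inside introns of other genes and many snRNA genes have close copies, so their counts are uncertain where the counting could split or share reads.

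The libraries did not share the higher snoRNA level evenly. The snoRNA share of all counts was 0.179%, 0.101%, 0.0924%, 0.113% and 0.184% in Co and 0.167%, 0.17%, 0.216%, 0.329% and 0.394% in FoEV. FoEV replicates 4 and 5 were highest, and FoEV replicates 1 and 2 lay inside the Co range. As the mean log2 CPM of the 85 genes, FoEV replicates 4 and 5 lay 1.55 above the Co mean and FoEV replicate 1 lay 0.02 above it, while Co replicates 1 and 5 lay 0.57 and 0.66 above it. The snRNA list lay 0.87 above its Co mean in Co replicate 1, higher than in FoEV replicates 1, 2 and 3 (0.56, 0.21 and 0.85). In FoEV replicate 4 it lay 1.31 above. The rRNA list lay 0.75 above its Co mean in Co replicate 1 and 1.34 above it in FoEV replicate 4.

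A subset of snoRNA genes lay apart between the groups all the same. For 7 of the 85 each FoEV library was above each Co library. LOC112442787, named U8 in the annotation of the study, which is needed for the cleavage of precursor ribosomal RNA rather than its modification, was at 44.8, 25, 33.5, 34.1 and 39 CPM in Co and 103, 63.6, 51.2, 64.8 and 69 CPM in FoEV (log2 fold change 1.00, standard error 0.19, adjusted p = 0.0578). LOC112443631 of the SNORA73 family was at 25.5, 21.3, 19.3, 18.1 and 27.1 CPM in Co and 65.8, 33.8, 46.3, 36.1 and 60.5 CPM in FoEV. Both were highest in FoEV replicate 1, unlike the mean over all snoRNA genes. LOC112448304 (SNORA63) was at 44.1 ± 1.9 CPM in Co and 83.5 ± 14.7 CPM in FoEV, LOC112441711 (SNORD15) at 12.7 ± 1.72 and 39.3 ± 12.1 CPM, and LOC112446862 (SNORA23) at 4.86 ± 1.46 and 11 ± 4.41 CPM (SD, n = 5).

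Long-known RNA parts of enzymes were also higher. RMRP, the RNA of the ribonuclease MRP, which cleaves precursor ribosomal RNA, was at 299, 187, 169.6, 218 and 231 CPM in Co and 721, 312, 402, 653 and 446 CPM in FoEV, a log2 fold change of 1.2 (standard error 0.21, adjusted p = 0.0578). TERC, the template RNA of telomerase, was at 42.3, 37.1, 33.9, 42.1 and 39.4 CPM in Co and 96.1, 58.8, 52.1, 101 and 62.7 CPM in FoEV (log2 fold change 0.93, standard error 0.17, adjusted p = 0.0578). For both genes FoEV replicates 1 and 4 were the highest libraries. RN7SL1, the RNA of the signal recognition particle, was at 1213, 1659, 1916, 2936 and 2631 CPM in Co and 7677, 2919.9, 3839, 2413 and 3475 CPM in FoEV. FoEV replicate 1 was the highest library, and FoEV replicates 2 and 4 lay within the Co range. The log2 fold change was 0.97, and 0.61 without FoEV replicate 1.

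The library preparation of the study held a step against ribosomal RNA fragments, so counts on ribosomal RNA genes are what remained after it. These genes did not all lie on the same side. Of 5 such genes, 3 named as 5S ribosomal RNA had log2 fold changes of 1.23, 1.11 and 1.09. The most abundant of them, LOC112443528, was at 441, 154, 129, 191 and 251.97 CPM in Co and 604, 330.5, 581, 738 and 484 CPM in FoEV, and overlapped between the groups through Co replicate 1. The gene with the highest count of all, LOC112444653, was at 187212 ± 60250.3 CPM in Co and 178749 ± 49836 CPM in FoEV, and RN18S1, of the small subunit RNA, at 38428 ± 10316 and 39704 ± 15246 CPM (SD, n = 5). Their log2 fold changes were -0.07 and 0.05, with standard errors of 0.24 and 0.22.

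Among longer and other non-coding RNAs, LOC104976804, which the annotation of the study pairs with the human gene NEAT1, was at 265, 415, 352, 272 and 353 CPM in Co and 739.8, 703, 432, 580.3 and 723 CPM in FoEV (log2 fold change 0.94, standard error 0.16, adjusted p = 0.0578). Its level in FeEV embryos was 608 ± 117 CPM, and the difference between FoEV and FeEV embryos was 0.06 on the log2 scale (adjusted p = 0.926). MIR2332, a microRNA gene, was at 8.65 ± 2.05 CPM in Co and 18.9 ± 5.31 CPM in FoEV without overlap. The 94 long non-coding RNA genes as a class had a median of 0.02, with 6 higher and 3 lower at an unadjusted p under 0.05.

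The proteins that handle these RNAs were shifted less than the RNAs. The 37 Sm, LSm and other snRNP proteins, which wrap the snRNAs, had 31 members above 0 and a median of 0.11, with 7 higher and 0 lower at an unadjusted p under 0.05. SNRPD3, a protein of the Sm ring, was at 77.4 ± 3.95 CPM in Co and 96.3 ± 14.4 CPM in FoEV (SD, n = 5). The 61 snoRNP proteins and ribosome assembly factors had a median of 0.08, or 0.04 without FoEV replicate 4, with 3 higher and 2 lower, and the 33 SR proteins and hnRNPs, which steer splicing, a median of -0.01 with 0 higher and 3 lower. WDR75, which takes part in early ribosome assembly, was at 80.2, 98.9, 86.1, 81.5 and 85.4 CPM in Co and 60.4, 71.4, 69.2, 66.4 and 69.5 CPM in FoEV, lower in each FoEV library. RNA polymerase II had 11 of 13 subunits above 0 with a median of 0.18, though 1 was higher at an unadjusted p under 0.05.

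**Figure D3:**
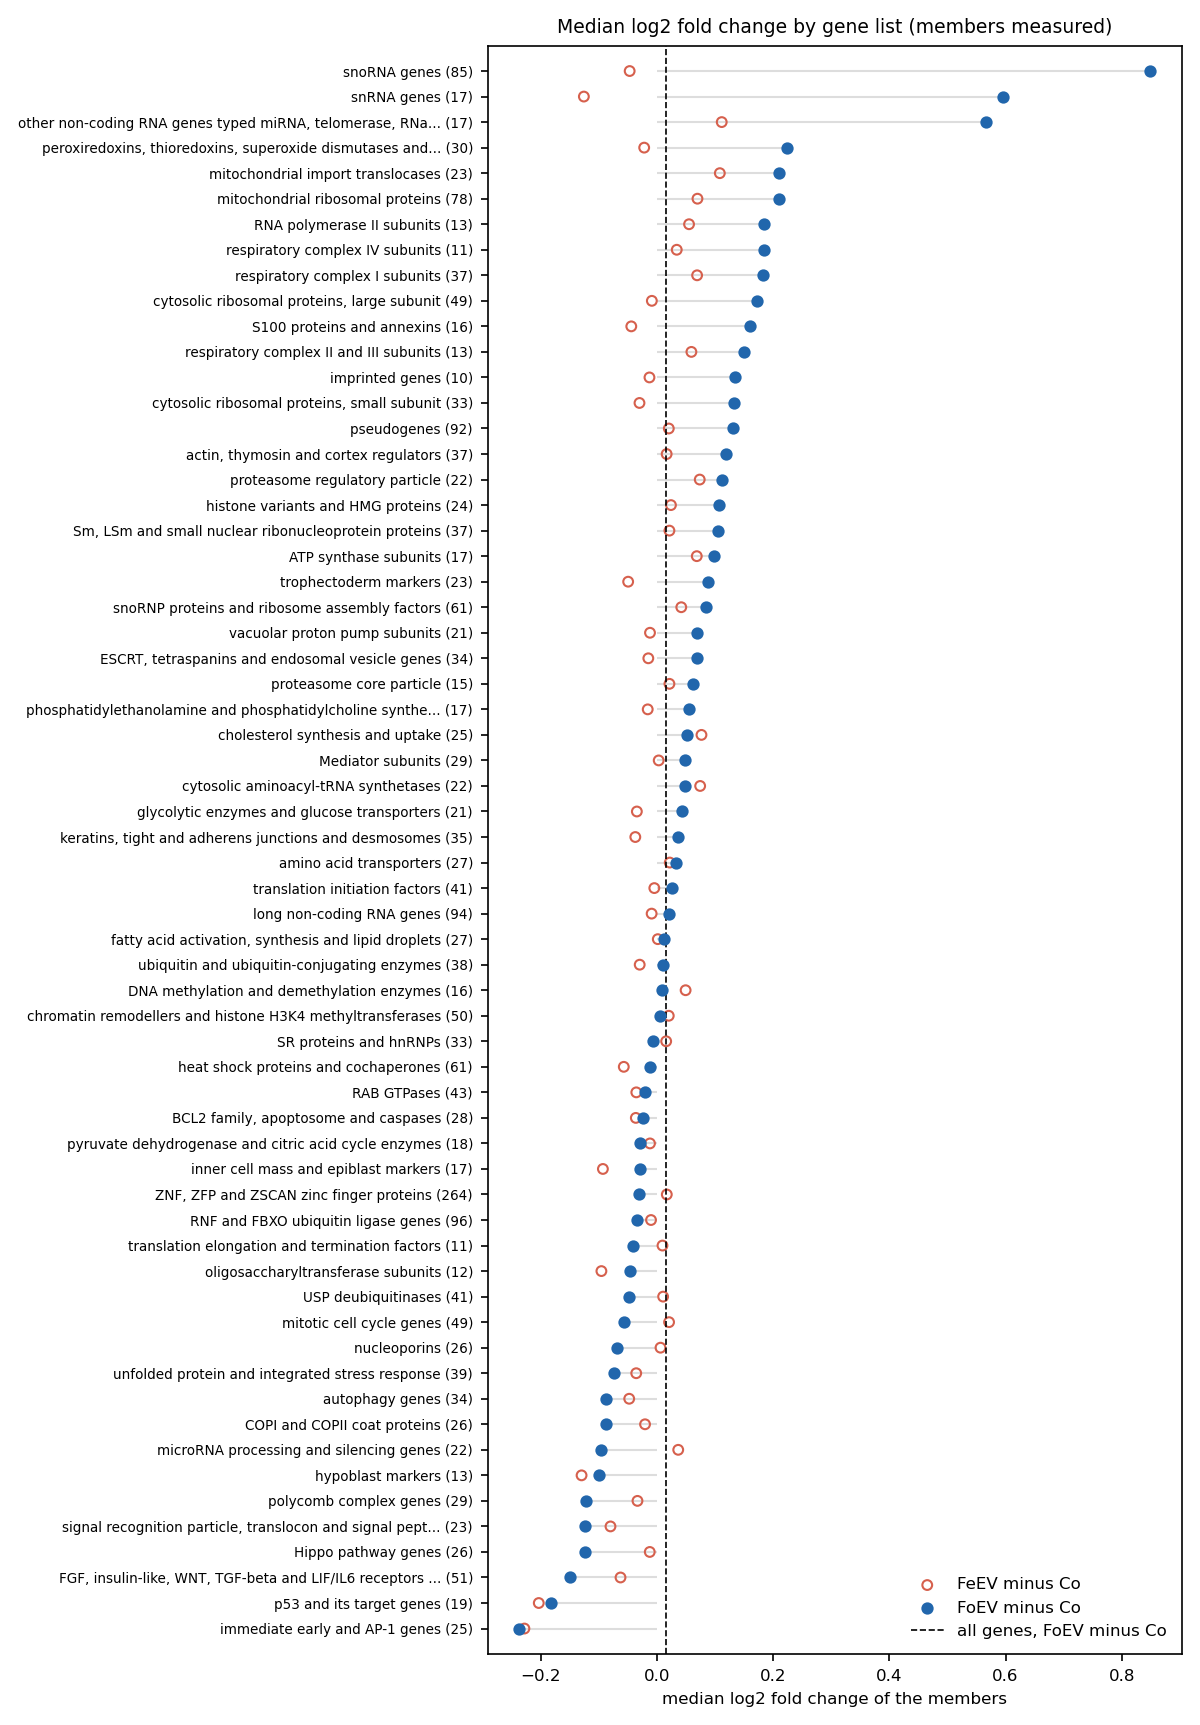
Median log2 fold change of the members of each gene list with at least 10 measured genes (number in brackets), for FoEV over Co (filled blue) and FeEV over Co (open orange, with the same Co libraries), and the median of all genes for FoEV over Co (dashed line at 0.01). The lists of snoRNA, snRNA and other non-coding RNA types (microRNA, telomerase, RNase MRP and others) lie farthest to the right for FoEV over Co. Their medians are 0.85, 0.60 and 0.57. Immediate early and p53 genes lie farthest to the left, at -0.24 and -0.18.

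Both particles of the proteasome, which degrades proteins, had more members on the higher side than on the lower side. The regulatory particle recognizes proteins tagged with ubiquitin. Of its 22 members, 16 had a log2 fold change above 0, the median was 0.11, and 7 were higher and 1 lower at an unadjusted p under 0.05, and 4 lay apart between the groups. PSMD4, a ubiquitin receptor of this particle, was at 78.8, 74.6, 79.7, 75.1 and 86.2 CPM in Co and 122, 109, 111, 115 and 86.7 CPM in FoEV (log2 fold change 0.46, standard error 0.10, adjusted p = 0.0757). FoEV replicate 5 exceeded the highest Co library only slightly. ADRM1, another ubiquitin receptor, was at 46.8 ± 4.63 and 60.4 ± 10.5 CPM, and PSMD11 at 96.2 ± 8.22 and 117 ± 7.78 CPM (SD, n = 5). The 15 members of the core particle had a median of 0.06, with 4 higher and 0 lower, and the median ran from -0.01 without FoEV replicate 3 to 0.12 without FoEV replicate 4.

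The ubiquitin ligases and deubiquitinases were near the background. Of 96 RNF and FBXO ligase genes, 8 were higher and 6 lower at an unadjusted p under 0.05, and of 41 USP deubiquitinases 1 was higher and 2 lower. Single ligases lay apart in both directions. RNF126, which acts with a chaperone on proteins that failed to reach a membrane, was at 26.6, 19.2, 22.3, 26.1 and 28.3 CPM in Co and 44.2, 36.8, 33.1, 40.4 and 33 CPM in FoEV. RNF13, a ligase of endosomal membranes, was at 58.3, 45.2, 63.2, 54.2 and 55.8 CPM in Co and 38.7, 41.9, 40.5, 37.4 and 43.3 CPM in FoEV, and FBXO33 was at 31.4 ± 2.07 and 23 ± 2.3 CPM (SD, n = 5).

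Antioxidant enzymes were another group on the higher side. Of 30 peroxiredoxins, thioredoxins, superoxide dismutases and glutathione enzymes, 23 had a log2 fold change above 0, with a median of 0.22, and 7 were higher and 1 lower at an unadjusted p under 0.05. PRDX2, a cytosolic peroxiredoxin that reduces hydrogen peroxide, was at 253, 205, 218, 218 and 253 CPM in Co and 318, 258, 303, 312 and 303 CPM in FoEV, with each FoEV library above each Co library (log2 fold change 0.38, standard error 0.08, adjusted p = 0.0757). GPX4, which reduces peroxides of membrane lipids, was at 81.3 ± 13.3 CPM in Co and 117 ± 25.9 CPM in FoEV, and PRDX6 at 168 ± 15 and 204 ± 24.8 CPM (SD, n = 5). IREB2, an RNA-binding regulator of iron uptake and storage that was not in this list, was lower at 185 ± 14.7 and 153 ± 7.36 CPM without overlap. By library, Co replicates 3 and 5 reached antioxidant list levels 0.19 and 0.26 above the Co mean, within the FoEV range of 0.13 to 0.32.

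**Figure D4:**
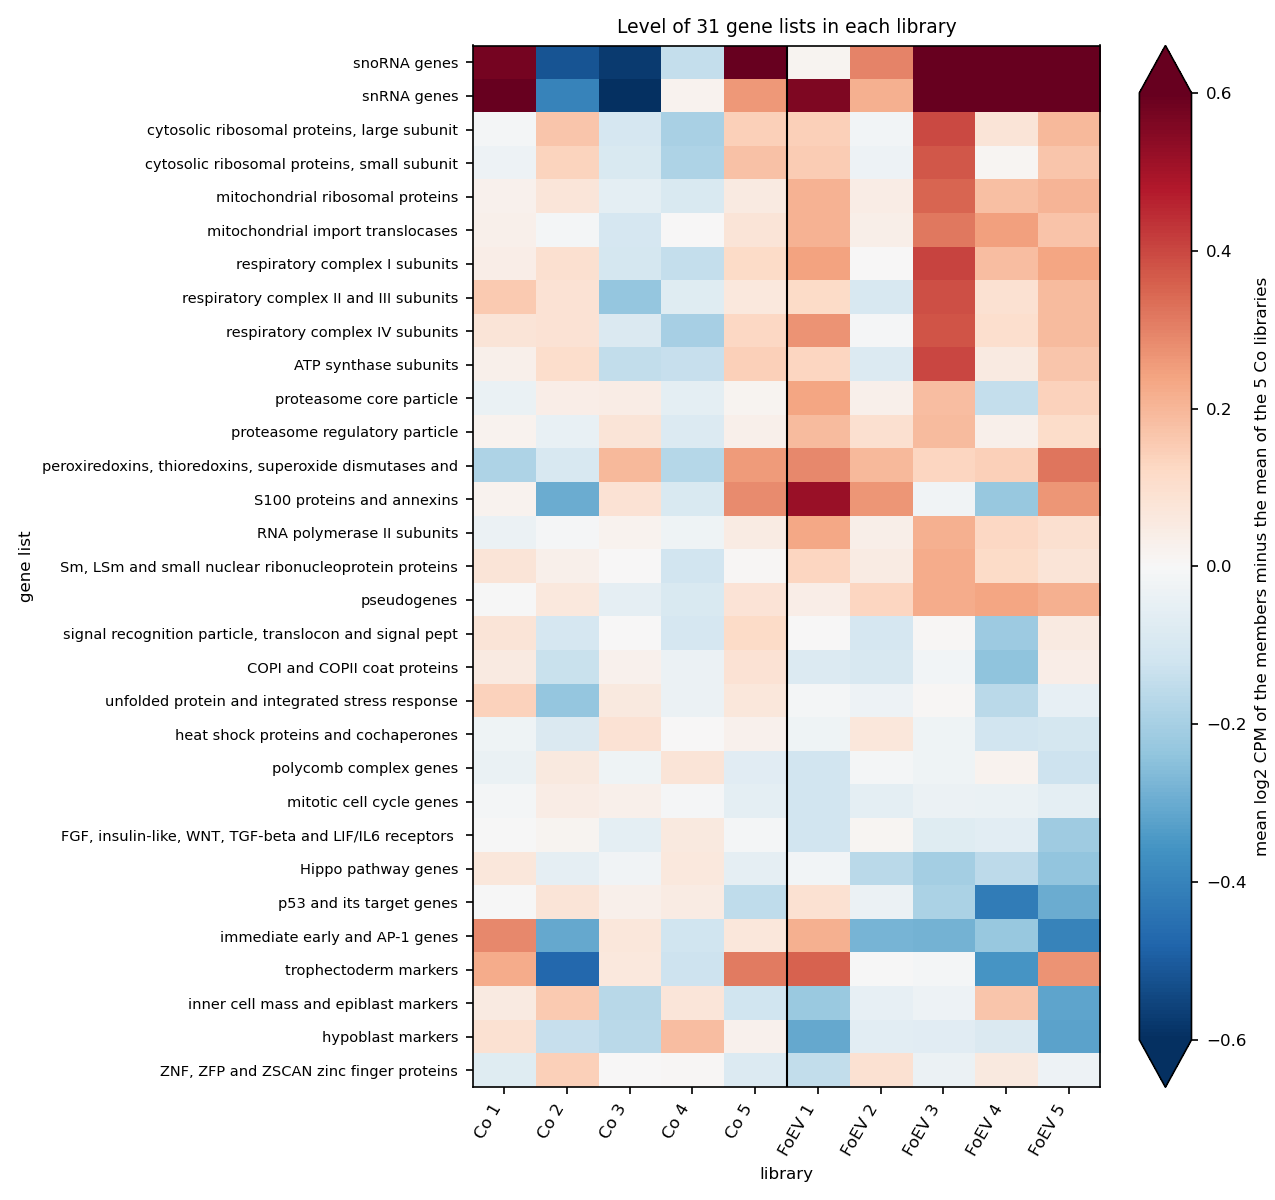
Mean log2 CPM of the members of 31 gene lists (rows) in each Co and FoEV library (columns), minus the mean of the 5 Co libraries, with red for higher and blue for lower and colours limited to 0.6 in either direction. FoEV replicate 3 is highest for the ribosomal and respiratory lists, at 0.40 for complex I, FoEV replicate 2 is close to the Co mean at 0.00, and the snoRNA list is highest in FoEV replicates 4 and 5.

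The lists of complex I and of the cytosolic and mitochondrial ribosome shared their highest and lowest FoEV libraries. Complex I and the mitochondrial ribosome also shared the order between these, while in the cytosolic ribosome FoEV replicate 5 lay above FoEV replicate 1. For complex I, the FoEV libraries lay 0.24, 0.00, 0.40, 0.18 and 0.24 above the Co mean in log2 CPM, and the Co libraries between -0.14 and 0.11. The large ribosomal subunit lay 0.14, -0.02, 0.40, 0.08 and 0.20 above its Co mean in FoEV, against -0.20 to 0.17 in Co, and the mitochondrial ribosome 0.21, 0.05, 0.35, 0.18 and 0.20 against -0.09 to 0.07. FoEV replicate 3 was the highest and FoEV replicate 2 the lowest FoEV library for each of these 3 lists, and for the mitochondrial ribosome 4 of 5 FoEV libraries lay above all Co libraries. The snoRNA genes had another order, with FoEV replicates 4 and 5 highest.

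Genes of the ER and of the early secretory pathway were more often lower. Of 39 genes of the unfolded protein and integrated stress responses, 26 had a log2 fold change below 0, with a median of -0.07, and 8 were lower and 3 higher at an unadjusted p under 0.05. DNAJB9, an ER cochaperone induced by unfolded protein, was at 64.5, 43.5, 65.5, 62.2 and 68.1 CPM in Co and 38.4, 42.4, 39.7, 28.7 and 42 CPM in FoEV (log2 fold change -0.66, standard error 0.13, adjusted p = 0.0578). The groups did not overlap, but Co replicate 2 lay close to the FoEV libraries. EIF2AK3 (PERK), the ER sensor kinase that slows translation, was at 39.7 ± 5.72 CPM in Co and 27 ± 6.04 CPM in FoEV, and CREBRF at 35.2 ± 4.07 and 23.9 ± 6.46 CPM (SD, n = 5). The list median ran from -0.14 without Co replicate 2 to -0.01 without FoEV replicate 4.

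The 3 members of this list that were higher at an unadjusted p under 0.05 were CHAC1, TRIB3 and ATF4. These were singled out after their values were seen. ATF4 is the transcription factor of the integrated stress response, and CHAC1 and TRIB3 are known targets of it. CHAC1 was at 7.66, 5.06, 6.45, 6.02 and 4.1 CPM in Co and 8.1, 8.83, 12.4, 20.4 and 4.09 CPM in FoEV. ATF4 was at 217, 232, 198, 179 and 222 CPM in Co and 176, 244, 287, 386 and 216 CPM in FoEV. In both cases, and for TRIB3 at 10.2 ± 2.2 and 15.7 ± 8.15 CPM, FoEV replicate 4 was the highest library and the groups overlapped. HERPUD1, a factor of ER-associated degradation chosen in the same way, was lower at 40 ± 9.36 and 27.1 ± 5.29 CPM (SD, n = 5). The list thus held members on both sides.

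Protein entry into the ER and export from it were also represented on the lower side. Of 23 genes of the signal recognition particle, the translocon and the signal peptidase, 14 were below 0, with a median of -0.12, and 5 were lower and 2 higher at an unadjusted p under 0.05. SRP9, a protein of the signal recognition particle, was at 95.2, 111, 95.5, 103 and 103 CPM in Co and 81.5, 78.2, 86, 62.8 and 91.9 CPM in FoEV, opposite in direction to the particle RNA RN7SL1. SSR3, a translocon-associated protein, was at 169.6 ± 13.7 and 138 ± 19.5 CPM, whereas SEC61B of the translocon pore was at 37.6 ± 7.7 and 48.6 ± 4.14 CPM (SD, n = 5). STT3B, the catalytic subunit of an enzyme that attaches sugar chains to new proteins, was not among these 23 genes. It was at 289.5, 277, 332, 334 and 346 CPM in Co and 241, 228, 249, 225 and 294 CPM in FoEV (log2 fold change -0.35, standard error 0.09, adjusted p = 0.0998). Of 12 subunits of such enzymes, 8 were below 0, and 1 was lower and 0 higher at an unadjusted p under 0.05. Their median was -0.05 and ran from -0.11 to 0.02 when single libraries were left out. The median of the 23 genes was -0.06 without FoEV replicate 4 and -0.08 without Co replicate 5.

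The coats of transport vesicles and the RAB GTPases were divided. COPI and COPII coat genes had 18 of 26 members below 0 with a median of -0.09, and 2 were lower and 1 higher at an unadjusted p under 0.05. SEC24A, a cargo adaptor of COPII vesicles that leave the ER, was at 146, 143, 170.3, 147 and 143 CPM in Co and 110.4, 99.1, 141, 97.2 and 138 CPM in FoEV, and COPA of the COPI coat at 242 ± 12 and 213 ± 9.04 CPM (SD, n = 5). In both cases each FoEV library lay below each Co library. Of 43 RAB genes, 6 were lower and 4 higher. RAB30, a RAB protein of the Golgi, was at 23.3, 25.3, 23.9, 30.9 and 21.3 CPM in Co and 7.41, 19.2, 17.1, 12.4 and 12.5 CPM in FoEV (log2 fold change -0.86, standard error 0.20, adjusted p = 0.0774). STXBP4, which binds a syntaxin, was at 41.7 ± 5.91 and 25 ± 4.28 CPM without overlap.

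Genes of endosomes and of vesicle formation were measured because the treatment consisted of vesicles. Of 34 ESCRT, tetraspanin and endosomal vesicle genes, 21 were above 0 with a median of 0.07, and 4 were higher and 2 lower at an unadjusted p under 0.05. CHMP2A, a subunit of the ESCRT-III complex that pinches off membranes, was at 31.7, 30, 28.4, 18.9 and 33.7 CPM in Co and 52.8, 43.6, 41.3, 41.7 and 39.8 CPM in FoEV (log2 fold change 0.62, standard error 0.16, adjusted p = 0.0998). STAM of ESCRT-0 was lower at 79.5 ± 9.46 and 66 ± 6.73 CPM, and VPS28 of ESCRT-I higher at 47.2 ± 5.41 and 59.1 ± 12.2 CPM (SD, n = 5). The median was 0.03 without FoEV replicate 1. The vacuolar proton pump, which acidifies endosomes and lysosomes, had 6 members higher and 0 lower of 21, with a median of 0.07 that ran from 0.04 to 0.10 when single libraries were left out. Its ATP6V0D2 subunit was at 192 ± 11.6 and 238 ± 32.9 CPM. The median of 34 autophagy genes was -0.09, with 3 higher and 1 lower, and the cargo receptor SQSTM1 was at 115 ± 12.7 and 145 ± 16.4 CPM.

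Heat shock proteins and cochaperones had a median log2 fold change near 0, at -0.01. Of 61, 1 was higher and 7 lower at an unadjusted p under 0.05, with a median of -0.01. HSPA13, an ER-linked member, was at 37.2 ± 7.25 CPM in Co and 25.4 ± 5.83 CPM in FoEV (SD, n = 5). HSF1, the transcription factor of the heat shock response, was higher in each FoEV library, at 45.2, 38.8, 37.7, 41.7 and 44.7 CPM in Co and 54.6, 50.2, 50.4, 66.4 and 51 CPM in FoEV (log2 fold change 0.39, standard error 0.11, adjusted p = 0.131).

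Receptors and transducers of growth signals leaned to lower levels. Of 51 genes of FGF, insulin-like, WNT, TGF-beta and LIF/IL6 signals, 36 were below 0 with a median of -0.15, and 9 were lower and 1 higher at an unadjusted p under 0.05. SOCS6, an inhibitor of cytokine and insulin signals, was at 88.2, 101, 96.1, 99.9 and 89.1 CPM in Co and 71.8, 81, 76, 75.1 and 63.2 CPM in FoEV (log2 fold change -0.37, standard error 0.09, adjusted p = 0.0918). IL6ST, the receptor chain shared by LIF and IL6, was at 143 ± 24.8 and 103 ± 20.5 CPM. LRP5, a WNT coreceptor, was the member higher at that threshold, at 20.1 ± 1.03 and 29.7 ± 6.67 CPM (SD, n = 5). It lay apart between the groups. By library, the list lay 0.01 above the Co mean in FoEV replicate 2 and 0.21 below it in FoEV replicate 5, without which the median was -0.09.

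Genes of the Hippo pathway, which reads cell position and sets trophectoderm fate in the early embryo, had 18 of 26 members below 0 with a median of -0.12, and 6 were lower and 1 higher at an unadjusted p under 0.05. MOB1A, an activator of the LATS kinases, was at 101 ± 8.43 CPM in Co and 80.2 ± 11.8 CPM in FoEV, AMOTL2, which holds the coactivator YAP at junctions, at 68.4 ± 7.87 and 53.9 ± 6.82 CPM, and TAOK1, a kinase upstream in the pathway, at 289 ± 15.1 and 234 ± 38.2 CPM (SD, n = 5). For each, 4 of 5 FoEV libraries lay below the lowest Co library. WWC2, a relative of the pathway member KIBRA that was not in this list, lay apart at 161 ± 14.6 and 132 ± 6.85 CPM.

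Cell division genes were lower by small amounts. Of 49 mitotic cell cycle genes, 34 were below 0 with a median of -0.06, and 7 were lower and 2 higher at an unadjusted p under 0.05. TTK (MPS1), a kinase of the spindle checkpoint, was at 78.4, 117, 113, 105 and 84.1 CPM in Co and 63.4, 76.9, 70, 66.8 and 93.2 CPM in FoEV, with FoEV replicate 5 inside the Co range. KIF11, a motor that separates the spindle poles, was at 163 ± 13.6 and 134 ± 7.91 CPM, and CDK2 at 20.3 ± 1.94 and 15.2 ± 1.65 CPM (SD, n = 5). HMMR, a spindle assembly factor that the study did not list, was at 168, 237, 151, 155 and 149 CPM in Co and 115, 136, 133, 113 and 128 CPM in FoEV, and CDC5L, a splicing factor needed for mitosis, at 170.3 ± 11.7 and 139.9 ± 9.91 CPM. CDK2, HMMR and CDC5L lay apart between the groups.

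Immediate early and p53 genes had the lowest medians of all lists but varied widely among libraries. Of 25 immediate early and AP-1 genes, 19 were below 0 with a median of -0.24, and 3 were lower and 1 higher at an unadjusted p under 0.05. By library this list ran from -0.31 to 0.29 around the Co mean in Co and from -0.40 to 0.21 in FoEV, and its median was -0.13 without Co replicate 1 and -0.15 without FoEV replicate 5. JUND, the member higher at that threshold, was at 34.9 ± 11.3 CPM in Co and 45.8 ± 5.16 CPM in FoEV (SD, n = 5). Of 19 genes of p53 and its targets, 14 were below 0 with a median of -0.18, and 3 were lower and 0 higher. ZMAT3, an RNA-binding p53 target, was at 92.6, 167, 112, 116 and 114 CPM in Co and 77.1, 103, 75.8, 45.1 and 77.1 CPM in FoEV. The p53 list median was -0.10 without FoEV replicate 4 or without FoEV replicate 5. In FeEV embryos, set against the same Co libraries, the medians of both lists were -0.23 and -0.20.

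Genes of programmed cell death lay on both sides. Of 28 members of the BCL2 family, the apoptosome and the caspases, 3 were higher and 5 lower at an unadjusted p under 0.05, with a median of -0.02. FADD, the adaptor of death receptors, was at 17.9, 10.5, 13.9, 12.8 and 16.4 CPM in Co and 33.3, 17.9, 20.9, 24.7 and 16.1 CPM in FoEV. The other 2 members higher at that threshold, BAX and BAK1, are pore-forming effectors and were named after their values were seen. BAX was at 27.2 ± 1.14 and 34.6 ± 7.15 CPM and BAK1 at 21.4 ± 6.05 and 31.4 ± 10.1 CPM (SD, n = 5). On the lower side, APAF1, which builds the apoptosome that activates caspases, was at 37.9, 40.1, 39.3, 54.2 and 41 CPM in Co and 27.3, 34.8, 30.3, 28.7 and 31.3 CPM in FoEV. MCL1, a member of the BCL2 family that protects cells from death, was at 261, 261, 263, 267 and 288 CPM in Co and 213, 226, 240, 204 and 229.5 CPM in FoEV. For both genes each FoEV library lay below each Co library. XIAP, an inhibitor of caspases, chosen after its values were seen, was at 80.6 ± 14.1 and 58.2 ± 10.9 CPM.

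Polycomb genes, which keep developmental genes silent through histone marks, had 18 of 29 members below 0 with a median of -0.12, and 7 were lower and 1 higher at an unadjusted p under 0.05. RYBP, a subunit of polycomb repressive complex 1, was at 203, 248, 212, 283 and 180.2 CPM in Co and 156, 176, 145, 192 and 133 CPM in FoEV (log2 fold change -0.49, standard error 0.12, adjusted p = 0.0918). KDM2B, which brings the complex to CpG islands, was at 204 ± 50.9 and 155 ± 25.3 CPM, whereas RING1, a ubiquitin ligase of the complex, was at 24.6 ± 3.98 and 32.8 ± 3.78 CPM (SD, n = 5). The median was -0.07 without Co replicate 2. Chromatin remodellers, DNA methylation enzymes and zinc finger proteins were near the background, with medians of 0.00, 0.01 and -0.03, and 12 higher and 21 lower of 264 zinc finger genes at an unadjusted p under 0.05.

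Lineage genes differed singly rather than as lists. Of 23 trophectoderm markers, 15 were above 0 with a median of 0.09, and 4 were higher and 2 lower at an unadjusted p under 0.05. This median ranged from 0.03 to 0.18 when single libraries were left out. KRT18, the keratin of simple epithelia and one of the most abundant transcripts, was at 2932, 2367, 2645, 2247 and 3231 CPM in Co and 4587, 3161, 4101, 3786 and 4012 CPM in FoEV (log2 fold change 0.55, standard error 0.13, adjusted p = 0.0818). FoEV replicate 2 lay below the highest Co library. KRT8, its partner in keratin filaments, was at 4266 ± 505 and 5088 ± 622 CPM, and these 2 keratins made up most of the summed trophectoderm level.

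The transcription factors of the trophectoderm did not all lie on the side of the keratins. GATA3 was at 215, 195, 194, 214 and 219 CPM in Co and 225, 232, 225, 251 and 252.4 CPM in FoEV, and ELF3 at 33.5, 18.6, 25.8, 21.3 and 34.5 CPM in Co and 34.5, 35.3, 34.7, 35.4 and 39.3 CPM in FoEV, though the lowest FoEV and the highest Co value of ELF3 were nearly equal. KLF5 was lower in each FoEV library, at 789, 867, 795, 792 and 825 CPM in Co and 639, 699.8, 738, 675 and 688 CPM in FoEV (log2 fold change -0.24, standard error 0.07, adjusted p = 0.143). CDX2 was at 32.9 ± 8.1 and 37.9 ± 6.22 CPM (SD, n = 5). S100A14, a calcium-binding protein of epithelia, was higher in each FoEV library at 330.2 ± 51.5 and 447 ± 23.9 CPM.

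Of the pluripotency genes, POU5F1 was at 168 ± 8.42 CPM in Co and 194 ± 30.3 CPM in FoEV and SOX2 at 32.4 ± 9.5 and 31.9 ± 12.4 CPM (SD, n = 5). The difference of SOX2 was -0.03 on the log2 scale with a standard error of 0.25. NANOG, the epiblast regulator, was at 91.2, 78.6, 46.4, 94.3 and 91.5 CPM in Co and 22.9, 50.5, 68.3, 45.7 and 37.6 CPM in FoEV, and overlapped through Co replicate 3 and FoEV replicates 2 and 3. Hypoblast markers had 9 of 13 members below 0 with a median of -0.10, which ran from -0.18 to -0.05 when single libraries were left out. Among them GATA6 was at 437 ± 37.5 and 428 ± 47.6 CPM, and RSPO3, a secreted enhancer of WNT signals, at 17.7 ± 7.13 and 10.4 ± 1.68 CPM.

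Genes outside the list of the study for FoEV against Co included a pair of close relatives on opposite sides. SBF1 (MTMR5), an inactive member of the myotubularin phosphatases, was at 73.3, 59.7, 51.6, 63.8 and 68.9 CPM in Co and 82.2, 80.5, 76.6, 81.1 and 83.7 CPM in FoEV (log2 fold change 0.35, standard error 0.10, adjusted p = 0.137). SBF2 (MTMR13), its paralog, was at 101, 90.1, 86.8, 92.3 and 113 CPM in Co and 74.8, 79, 81.3, 77.8 and 72.5 CPM in FoEV (log2 fold change -0.32, standard error 0.09, adjusted p = 0.135). In each case the groups lay apart. Others above all Co libraries were FOXP4, a forkhead transcription factor, at 71.7 ± 8.32 and 98.7 ± 19.1 CPM, SERINC2 at 95.5 ± 13 and 129 ± 20.6 CPM, POLE4, a small subunit of DNA polymerase epsilon, at 25.5 ± 3.7 and 34.6 ± 4.25 CPM, and the histone gene H2AC13 at 15.3 ± 1.68 and 23.2 ± 4.87 CPM (SD, n = 5). Reads of H2AC13 may be shared with other copies of histone H2A.

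On the lower side, the genes outside that list included regulators of RNA and of transcription. DIS3L2, an exonuclease that degrades RNAs with a uridine tail, was at 17.9, 17.5, 17.7, 18.1 and 24.6 CPM in Co and 11.6, 14.1, 14.9, 12 and 13.4 CPM in FoEV (log2 fold change -0.53, standard error 0.15, adjusted p = 0.134). NR1D2 (REV-ERB beta), a repressor of the circadian clock, was at 42.9 ± 7.08 CPM in Co and 30 ± 5.18 CPM in FoEV, MSL2, a ubiquitin ligase of the MSL histone acetyltransferase complex, at 97.8 ± 9.65 and 76.9 ± 9.5 CPM, and the membrane protein TMEM170A at 103 ± 8.91 and 76.2 ± 16.6 CPM (SD, n = 5). Each of them lay below all Co libraries in the 5 FoEV libraries.

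Set beside the FeEV treatment, which shares the Co libraries, the shift of most lists was smaller. The median of the mitochondrial ribosome was 0.21 for FoEV and 0.07 for FeEV over Co, that of complex I 0.18 and 0.07, and that of the antioxidant enzymes 0.22 and -0.02. For single genes the direct comparison of FoEV with FeEV libraries passed at no gene named here. ETNK1 was at 145 ± 21.3 CPM in FeEV embryos, between both other treatments, and differed by -0.38 on the log2 scale from FeEV to FoEV embryos (adjusted p = 0.450). SBF2, at 100.1 ± 7.4 CPM in FeEV, differed by -0.38 (adjusted p = 0.447), and DNAJB9, at 42.5 ± 5.51 CPM, by -0.16 (adjusted p = 0.746).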

How the data were processed

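Total RNA of 15 embryo pools was sequenced. The authors deposited counts of reads per gene without normalization, for 34773 genes and for the 10832 genes they kept after filtering on low counts, on the bovine assembly ARS-UCD1.2. The submitters' processing notes name Trim Galore 0.4.3.1, HISAT2 2.1.0 and featureCounts 1.6.3, the methods of the study name QuasR for counting, and the strand setting is not given in the sources used here. The filtered counts were scaled by TMM, and edgeR 4.0.16 (R 4.3.3) applied its quasi-likelihood F test with robust=TRUE in 1 fit over 15 libraries with treatment as the only factor and Benjamini-Hochberg adjustment, and DESeq2 1.42.0 served as an alternative. Levels of lists are means of log2 CPM after adding a prior count of 2. A log2 fold change above 0 counts as higher and "apart" means no overlap of the 5 FoEV and 5 Co libraries. Counting error limits low genes, with 3 counts as the floor.

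The members and gene lists were chosen with earlier results of these data known. Genes were named by rule, first those past the adjusted threshold. Per direction, the 10 largest differences at an unadjusted p under 0.001 without overlap were named. Symbols starting with LOC, snoRNA and snRNA genes were left out there, while telomerase, RNase MRP and microRNA genes stayed in. Also per direction came the 10 smallest p among genes outside the list of the study for FoEV against Co. These had no overlap and a mean of at least 10 CPM. The rule further took the 3 smallest p in each list and the 5 smallest p among snoRNA and snRNA genes. It also took members of the other non-coding RNA types (microRNA, telomerase, RNase MRP, SRP and others) and cell type markers. Genes outside the rule are marked in the text. Some genes that these choices named are not reported here. Gene types and names came from RefSeq, with 10709 of 10832 genes matched, and snoRNA names from the supplement of the study. In a test on simulated counts of 10832 genes, in which 200 genes differed by a log2 value of 1, the quasi-likelihood test recovered 79.5%, and 21% when they differed by 0.5. Corrections for GC content and length were not run. Alternatives comprised 10 settings and each library left out in turn.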

Additional observations from a re-analysis of the deposited data

Results flagged for a closer look

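A sample was set aside for a closer look where its gap to the nearest library of its group, on the log2 scale, exceeded 0.71 of the range of the group. Chance gives about 1 such flag in 20 groups, and 258 groups were examined, of which 23 gave a flag. In Co replicate 2, DNAJB9 (43.5 CPM) and EIF2AK3 (29.7 CPM) were far below the other Co libraries, and HMMR (237 CPM) was far above them. In Co replicate 3, NANOG (46.4 CPM) was low, and SEC24A (170.3 CPM) and SELENOI (239 CPM) were high. In Co replicate 4, COX6B1 (37.7 CPM), NDUFB11 (29.7 CPM) and TRIB3 (6.42 CPM) were low, and APAF1 (54.2 CPM) was high. In Co replicate 1, BAK1 (32.1 CPM), CFL1 (599 CPM) and POU5F1 (183 CPM) were high, and in Co replicate 5 DIS3L2 (24.6 CPM) and MCL1 (288 CPM) were high.

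Among the FoEV libraries, replicate 4 was low for DNAJB9 (28.7 CPM) and SLC30A1 (61.1 CPM), and replicate 2 was low for ATP5MC1 (44.7 CPM) and PRDX2 (258 CPM). FoEV replicate 4 was also high for CFL1 (761 CPM), and FoEV replicate 3 was low for S100A5 (37.7 CPM). FoEV replicate 1 was high for RPL39 (674 CPM), and FoEV replicate 5 for ELF3 (39.3 CPM). What set these values apart was not tested.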

How the results depend on the processing

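The number of genes at an adjusted p under 0.05 depended most on the test. It was 1 by the quasi-likelihood test of edgeR, 311 by a robust dispersion with a likelihood ratio test and 144 by the Wald test of DESeq2. It was 173 with no filter on low counts, 30 among genes with a mean of at least 20 CPM, and 5 with the 10 FoEV and Co libraries alone. With single libraries left out, it ran from 0 to 58, with 1244 to 1956 genes at an unadjusted p under 0.05. At an unadjusted p under 0.001, the number was 90, and 261, 156 and 278 by the likelihood ratio test, DESeq2 and no filter, and from 40 to 153 with single libraries left out. At an unadjusted p under 0.05 it was 1631, and 2617 with no filter. The number of genes without overlap was 282, and from 343 to 649 with single libraries left out, which has fewer libraries to separate. The cause was not tested in the other cases. In simulated data without changed genes the likelihood ratio test called 6, DESeq2 1 and the quasi-likelihood test 0. With 200 genes changed by a log2 value of 1, 19%, 5.11% and 2.45% of their calls were false, in the same order. They recovered 87.5%, 83.5% and 79.5% of the changed genes. With a change of 0.5, 39.7%, 5.09% and 2.33% of the calls were false, and 38%, 28% and 21% of the changed genes were recovered.

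FoEV and Co libraries with the same title number correlated at 0.034 on average (from -0.291 to 0.347). The 3 pairs with the same library number in the descriptions correlated at 0.076 (from -0.107 to 0.337), and pairs with other description numbers at -0.010. Neither number was taken to pair the pools, though 3 pairs are few for this check. With the replicate block 57 genes had an adjusted and 141 an unadjusted p under the thresholds of 0.05 and 0.001, and with a block from the library number of the descriptions 12 and 59.

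Of 1156 medians of lists recomputed, 1141 stayed within the spread between libraries. With the block from the descriptions, the median was -0.019 for ubiquitin and its conjugating enzymes, -0.069 for growth signals, -0.10 for phospholipid synthesis and 0.018 for endosomal vesicle genes. With counts thinned to equal depth it was -0.032 for ubiquitin and its enzymes. Among genes with a mean of at least 20 CPM it was -0.12 for phospholipid synthesis, 0.59 for rRNA genes and 0.95 for the other non-coding RNA types. With single libraries left out, it ran from 0.13 to 0.26 for RNA polymerase II, from 0.0013 to 0.071 for Mediator, from 0.089 to 0.15 for histone variants, from -0.023 to 0.011 for ubiquitin and its enzymes and from -0.14 to 0.30 for oviduct markers. For 25 of 68 lists and gene types the median took the other sign with at least 1 library left out. Of 4638 recomputed values of named genes, 4316 kept their side of the adjusted threshold (28 of these, none past it, had the other sign), 317 moved past it and 5 no longer passed it, all of them ETNK1 with 1 library left out.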

Other observations

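Most genes of actin and its partners had a log2 fold change above 0, though few passed an unadjusted p under 0.05. Of 37 genes of actin, thymosins and cortex regulators, 26 had a log2 fold change above 0 with a median of 0.12, and 4 were higher and 2 lower at an unadjusted p under 0.05. Among the 4 higher genes, TMSB10, which binds actin monomers, was at 280 ± 32.4 CPM in Co and 340.4 ± 31.2 CPM in FoEV. PFN1 (profilin) was at 376 ± 66.9 and 471 ± 63.7 CPM, and CFL1 (cofilin), which cuts actin filaments, at 489 ± 62.4 and 597 ± 94.2 CPM (SD, n = 5). S100 proteins and annexins had 12 of 16 members above 0 with a median of 0.16, with 3 higher and 0 lower, and S100A5 was at 31, 29, 37.4, 25.7 and 47.2 CPM in Co and 63.9, 56.8, 37.7, 61.4 and 57 CPM in FoEV. That median was 0.03 without FoEV replicate 1 and 0.27 without FoEV replicate 4. Histone variants and HMG proteins had 18 of 24 members above 0 with a median of 0.11, with 3 higher and 1 lower.

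Genes of microRNA processing and silencing had 15 of 22 members below 0 with a median of -0.10, with 2 lower and 1 higher at an unadjusted p under 0.05, and the median was -0.04 without FoEV replicate 1. Nucleoporins had 18 of 26 members below 0 with a median of -0.07, with 2 lower and 1 higher. Cholesterol synthesis genes had a median of 0.05 and fatty acid genes of 0.01, and the first ran from -0.01 to 0.14 when single libraries were left out. The 10 imprinted genes had a median of 0.13, with 1 higher and 0 lower, and the median was 0.04 without Co replicate 2.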
